A study of Mus musculus with 18 samples.

Results

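The cell cycle and DNA replication genes described here are 47 mouse genes, chosen by name, of the 26327 gene symbols in the count table. By known role they were divided into 10 genes of replication licensing and initiation, 4 genes of DNA synthesis and nucleotide supply, 2 S phase cyclins, 22 mitotic genes, 3 transcription factors, 3 Cip/Kip inhibitors and 3 D cyclins. The licensing and synthesis genes together form 14 replication genes, which were kept apart from the mitotic genes throughout. All 47 were listed in the count table, and 46 passed the filter on low counts. The exception was Mybl2, a transcription factor of the late cell cycle.

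A cell that prepares to divide first loads the Mcm helicase onto replication origins in G1, activates it at the start of S phase, and copies its DNA. Separate sets of genes then build the spindle, attach the kinetochores and complete division. D cyclins drive the exit from G1 by activating their partner kinases, and the Cip/Kip proteins inhibit cyclin-dependent kinases. E2F factors are known to act on many replication genes, whereas many mitotic genes carry CCAAT and CHR elements in their promoters, which bind NF-Y and the DREAM and MuvB complexes. In the tracheal epithelium basal cells are the dividing stem cells, and brush cells form a rare chemosensory cell type akin to the tuft cells of the gut.

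RNA-seq had been done on 18 samples of tracheal cells, sorted from naive animals. Mice of all groups carried the BAC transgene Tg(RP23-268L19-EGFP)2Mik on the B6.Cg background, in which Chat sequences drive eGFP, so the controls carried the reporter too. The Brush samples (n = 7) were live CD45-, EpCAM+ and eGFP+ cells. The EpCAM+ samples (n = 7) were live CD45- and EpCAM+ cells, and the gate as worded does not leave out eGFP+ cells. The CD45+ samples (n = 4) were live hematopoietic cells. Age and sex were not given in the sources used here. Whether samples within a group are different mice is not labelled, so p-values reflect only how these samples scatter, and that scatter may be technical.

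Total counts per library ranged from 838328 to 6031711 in Brush, from 2442601 to 6087184 in EpCAM+ and from 371652 to 7438791 in CD45+ samples. Reads of ribosomal RNA genes made up 24.0 to 63.5% in Brush, 12.2 to 34.1% in EpCAM+ and 20.7 to 43.4% in CD45+ libraries. Brush replicate 4, EpCAM+ replicate 5 and CD45+ replicate 1 stood apart, with median Spearman correlations to their own group of 0.849, 0.810 and 0.759. The sorts matched their markers. The 8 brush cell markers, all with reads in Brush, summed to 10177 to 13076 CPM, counts scaled to library size by TMM, in Brush, 6.501 to 36.9 CPM in EpCAM+ libraries, where Il25 was at 0, and 323 to 724 CPM in CD45+ libraries, where Pou2f3 and Il25 were at 0. The 7 leukocyte markers summed to 79.2 to 223 CPM in Brush, to 8.76 to 41.0 CPM in EpCAM+ libraries, where Cd53 and Tyrobp were at 0, and to 6329 to 7973 CPM in CD45+ libraries.

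Cell cycle genes were mostly lower in Brush libraries than in either other population, with larger fold changes among the mitotic than among the replication genes, a difference between lists that was not tested. Against EpCAM+ libraries, 35 of the 46 members tested were called at an adjusted p below 0.05 (edgeR quasi-likelihood test, Benjamini-Hochberg over 13418 genes), where 40.3% of all genes were called. Of these 34 were lower in Brush, where 22% of all genes tested were lower. The only member higher was Cdkn1b, where 18.3% of all genes were higher, and 11 members were not called. The median log2 fold change was -2.78 for the members and -0.06 for all genes. Among the mitotic genes 20 of 22 were lower, with a median log2 fold change of -4.998, and among the replication genes 8 of 14 were lower, with a median of -1.41. Against CD45+ libraries 42 of 46 members were called, where 45.8% of all genes were. Of these 41 were lower in Brush, where 22.4% of all genes were, and 1, Cdkn1c, was higher, where 23.4% of all genes were. Those lower were 21 of 22 mitotic genes, with a median of -4.73, and 14 of 14 replication genes, with a median of -2.16. Both comparisons use the same Brush libraries. A mean under 1 CPM in Brush was seen for 15 of the 22 mitotic genes, which passed the filter through the other groups, so these counts and medians describe the members and are no test of the list. Because the cells were sequenced in bulk, fewer cells of a type and less RNA per cell cannot be told apart.

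**Figure D1:**
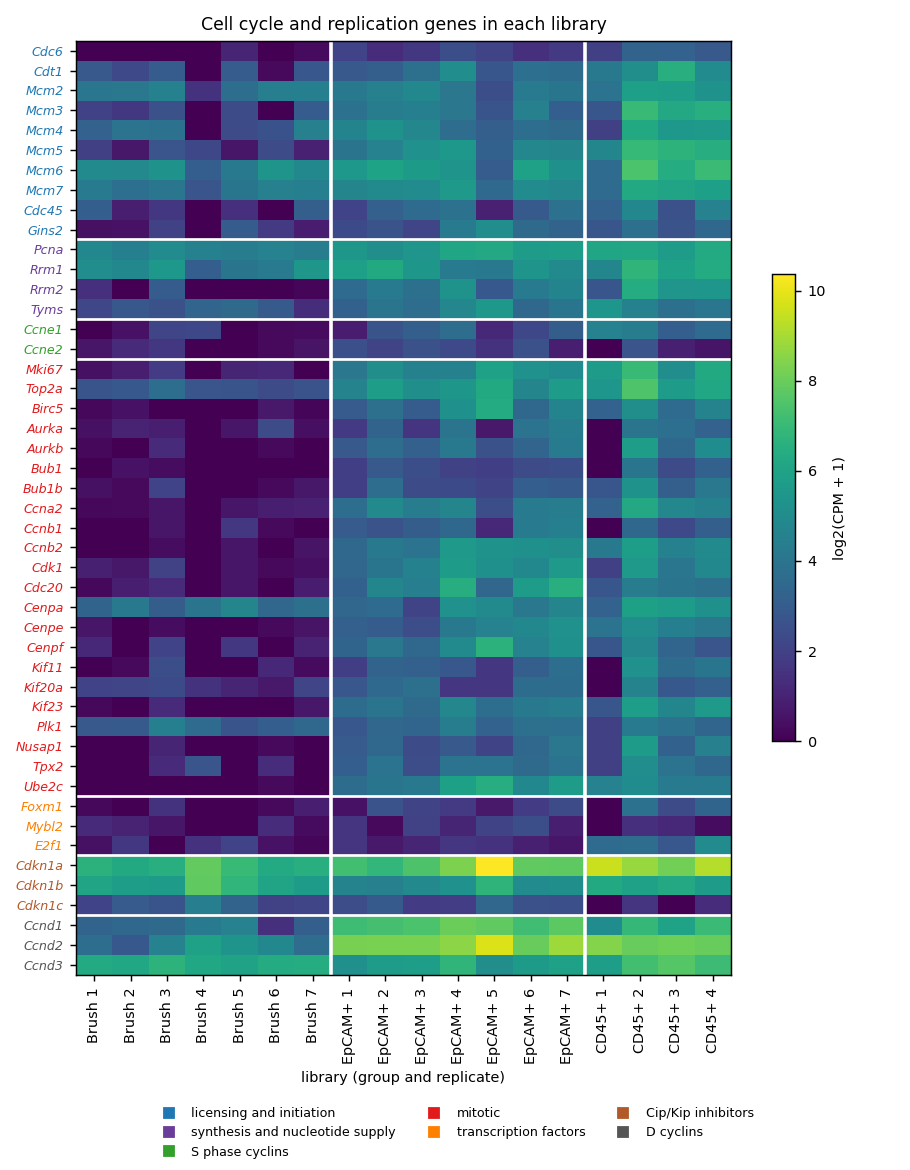
Level of each of the 47 members in each library as log2(CPM + 1), with rows grouped by role and columns by Brush, EpCAM+ and CD45+ replicates. In the 7 Brush libraries 15 of the 22 mitotic genes have means under 1 CPM and Top2a, Cenpa and Plk1 have the highest means of that block, while Mcm2, Mcm6, Mcm7, Pcna and Rrm1 keep intermediate levels there.

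The summed levels show the same division within each library. The 14 replication genes summed to 58.4 CPM in the lowest Brush library, 142 CPM in the median one and 202 CPM in the highest. Their sum was 231, 323 and 398 CPM in EpCAM+ libraries (lowest, median and highest), and 249.97, 1004, 702 and 741 CPM in CD45+ replicates 1 to 4. Every Brush library lay below every EpCAM+ and every CD45+ library. The 22 mitotic genes summed to 29.2 CPM (lowest), 38.5 CPM (median) and 70.7 CPM (highest) in Brush. They summed to 188, 426 and 606 CPM in EpCAM+ libraries, and to 209.7, 1036, 395 and 531 CPM in the 4 CD45+ libraries. The groups again did not overlap with Brush, and the gap was wider than for replication. Mitotic genes made up 24.1 ± 8.46% of the 2 sums in Brush (SD, n = 7), 55.7 ± 12.1% in EpCAM+ (n = 7) and 43.5 ± 6.24% in CD45+ libraries (n = 4). The highest Brush share, 40.4%, came from replicate 4, with 21 mitotic and 31 replication reads, while the lowest share was 40.5% in EpCAM+ and 36.0% in CD45+ libraries, so that Brush overlapped with CD45+ in this measure. In TPM, the RSEM values that also correct for transcript length, the mitotic shares were 17.2 ± 3.48% in Brush, 51.9 ± 9.73% in EpCAM+ and 43.7 ± 4.44% in CD45+ libraries. These values also differ from CPM in how reads were assigned and scaled, with large differences in Brush for Gins2 and Plk1, given below.

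**Figure D2:**
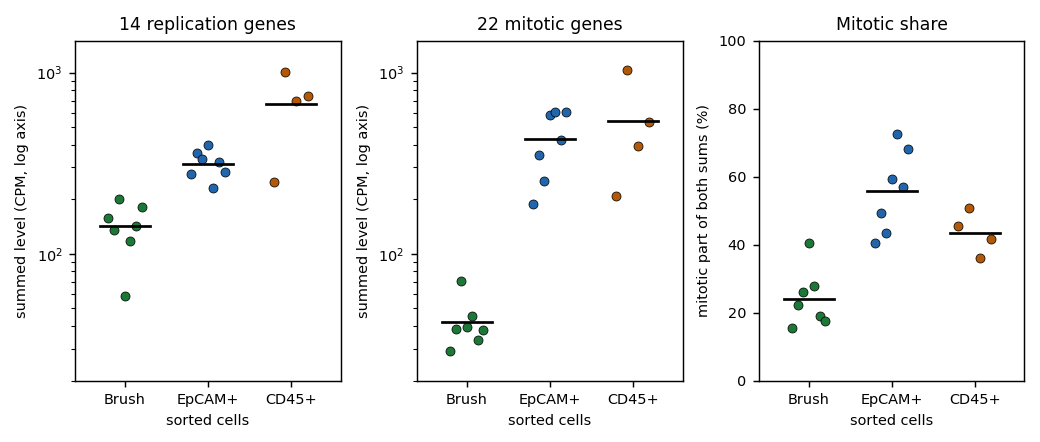
Summed CPM of the 14 replication genes (left) and of the 22 mitotic genes (middle), both on log axes, and the mitotic percent of the 2 sums (right), with 1 point per library and a bar at the group mean. Brush points lie below the EpCAM+ and CD45+ points in both sums, and the Brush mean share of 24.1% lies below 55.7% in EpCAM+ and 43.5% in CD45+ libraries.

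Markers of other cell types differed between the same groups. The 7 basal cell markers all had reads in each group and summed to 52.4 to 203 CPM in Brush, 3838 to 6082 CPM in EpCAM+ and 5.75 to 59.8 CPM in CD45+ libraries. The 7 club and goblet cell markers, also all with reads in each group, summed to 399.5 to 3402 CPM in Brush, 34347 to 166629 CPM in EpCAM+ and 273 to 1622 CPM in CD45+ libraries. Ciliated cell markers (6) summed to 75.0 to 253 CPM in Brush, 335 to 1403 CPM in EpCAM+ and 161 to 599.9 CPM in CD45+ libraries, and fibroblast markers (5) to 3.63 to 26.4 CPM in Brush, 251 to 519.8 CPM in EpCAM+ and 5.23 to 33.7 CPM in CD45+ libraries, all with reads in each group. Myeloid markers (7) summed to 16.0 to 60.3 CPM in Brush, where S100a8 was at 0, 1348 to 3696 CPM in EpCAM+ libraries, where C1qa and C1qb were at 0, and 5510.5 to 21893 CPM in CD45+ libraries. The part of these lists in the differences of the cell cycle genes was not tested.

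The promoter windows of the members were searched for the 3 elements named above, and a link of these elements to the levels was not tested. RefSeq (GRCm38.p6) windows of 300 bases, from 250 before to 50 after the annotated start, were at hand for 36 of the 47 members. The CHR words searched were TTTGAA and TTTAAA, of which TTTAAA is its own reverse complement. The other words were CCAAT, and for E2F TTTGGCGC, TTTCCCGC, TTTCGCGC and TTTGCCGC, all on both strands. A CHR word was present for 16 of the 18 mitotic genes with a window (88.9%), for 4 of 12 replication genes (33.3%) and for 30.6% of all 27025 genes of the promoter table. CCAAT was present for 16 mitotic genes (88.9%), 9 replication genes (75%) and 41.1% of all genes. An E2F word was present for 1 mitotic gene (5.6%), Cdk1, for 6 replication genes (50%) and for 2.6% of all genes. CHR and CCAAT stood together in 83.3% of the mitotic, 33.3% of the replication and 13.4% of all windows. A match is only a run of letters, and binding was not measured here. The following 5 windows are shown 5′ to 3′ on the strand of the gene, with the matched words in capitals. Ube2c (chr2:164769679-164769978, plus strand) and Ccnb2 (chr9:70421505-70421804, minus strand) are shown as the mitotic genes with the largest differences. Plk1 (chr7:122159185-122159484, plus strand) is shown as a mitotic gene not called in the counts, though it was called lower in Brush with RSEM expected counts. Mcm5 (chr8:75109259-75109558, plus strand) is shown as a licensing gene much lower in Brush. Mcm6 (chr1:128359656-128359955, minus strand) is shown as a licensing gene not called against EpCAM+ libraries, though it was called lower without the 3 libraries that stood apart.
Ube2c: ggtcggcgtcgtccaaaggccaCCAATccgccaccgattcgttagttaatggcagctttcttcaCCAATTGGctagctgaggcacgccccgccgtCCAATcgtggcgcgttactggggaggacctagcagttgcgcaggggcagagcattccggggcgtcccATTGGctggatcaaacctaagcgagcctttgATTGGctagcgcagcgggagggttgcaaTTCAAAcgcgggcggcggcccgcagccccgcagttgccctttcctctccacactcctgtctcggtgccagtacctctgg
Ccnb2: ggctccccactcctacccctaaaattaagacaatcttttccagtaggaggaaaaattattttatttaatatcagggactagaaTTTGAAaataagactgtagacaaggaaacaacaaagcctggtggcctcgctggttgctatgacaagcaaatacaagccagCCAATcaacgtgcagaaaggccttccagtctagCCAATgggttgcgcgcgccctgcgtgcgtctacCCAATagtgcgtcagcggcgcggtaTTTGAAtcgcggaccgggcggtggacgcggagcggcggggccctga
Plk1: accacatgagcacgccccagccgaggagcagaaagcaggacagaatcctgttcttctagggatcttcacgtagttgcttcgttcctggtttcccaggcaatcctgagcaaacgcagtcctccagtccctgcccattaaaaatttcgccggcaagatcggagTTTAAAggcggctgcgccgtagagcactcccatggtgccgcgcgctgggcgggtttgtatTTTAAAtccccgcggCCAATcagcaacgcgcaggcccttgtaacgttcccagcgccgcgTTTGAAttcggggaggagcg
Mcm5: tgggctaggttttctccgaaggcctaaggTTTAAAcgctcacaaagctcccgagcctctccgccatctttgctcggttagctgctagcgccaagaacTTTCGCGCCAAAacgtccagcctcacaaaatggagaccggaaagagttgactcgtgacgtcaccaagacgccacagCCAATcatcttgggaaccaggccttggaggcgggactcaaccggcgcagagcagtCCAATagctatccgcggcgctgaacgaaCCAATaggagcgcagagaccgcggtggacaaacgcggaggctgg
Mcm6: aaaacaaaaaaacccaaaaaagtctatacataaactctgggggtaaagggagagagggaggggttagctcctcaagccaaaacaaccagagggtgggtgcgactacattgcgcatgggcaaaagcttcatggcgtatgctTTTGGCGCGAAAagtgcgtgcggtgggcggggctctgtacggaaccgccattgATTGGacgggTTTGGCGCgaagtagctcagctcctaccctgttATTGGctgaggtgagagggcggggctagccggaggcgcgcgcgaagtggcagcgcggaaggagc

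The Plk1 window has the same pair of elements as those of Ube2c and Ccnb2, with 3 CHR words and 1 CCAAT against 1 and 6 in Ube2c and 2 and 3 in Ccnb2. In Ube2c, 1 CCAAT overlaps a CCAAT on the other strand in the run CCAATTGG. Mcm5 has 2 E2F words that overlap each other, and Mcm6 has 3, of which 2 overlap. Whether the words in these windows bear on the levels was not tested.

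Among the licensing genes, Cdc6 was nearly absent from Brush libraries, with 4 reads in all, Mcm5 and Mcm3 were lower there than in both other groups, and Mcm2, Mcm4, Mcm6 and Mcm7 were not called against EpCAM+ libraries. Cdc6, which loads the helicase onto origins, was at 0 CPM in the lowest and the median Brush library and at 1.09 CPM in the highest. It was at 1.49, 2.43 and 4.58 CPM in EpCAM+ libraries (lowest, median, highest) and at 2.87, 8.97, 8.54 and 6.35 CPM in the CD45+ libraries. No Brush library reached the lowest library of either other group, and in the edgeR fit Cdc6 was lower in Brush on the log2 scale, at -4.02 ± 0.72 (SE, adjusted p = 8.24e-05) against EpCAM+ and -5.40 ± 0.76 (adjusted p = 2.86e-06) against CD45+ libraries. Without Brush replicate 5, which held 2 of its 4 Brush reads, the Cdc6 values were -4.87 and -6.26. The helicase subunit Mcm5 was at 0.544, 2.90 and 5.69 CPM in Brush, at 8.33, 25.1 and 44.6 CPM in EpCAM+ libraries, and at 25.9, 120.4, 102 and 86.4 CPM in CD45+ libraries. Its groups did not overlap either, with edgeR log2 fold changes of -3.31 ± 0.49 (adjusted p = 8.63e-06) against EpCAM+ and -5.04 ± 0.54 (adjusted p = 6.25e-08) against CD45+. Mcm3, another subunit, averaged 3.08 ± 2.58 CPM in Brush, 15.0 ± 6.43 CPM in EpCAM+ and 73.8 ± 50.3 CPM in CD45+ libraries (SD), and was lower in Brush against both (edgeR adjusted p = 0.00382 against EpCAM+ and 2.95e-06 against CD45+).

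Mcm2 and Mcm6 belong to the same ring of 6 subunits. Mcm2 was at 1.89, 16.8 and 22.5 CPM in Brush (lowest, median, highest), at 4.63, 17.2 and 27.3 CPM in EpCAM+ libraries, and at 14.4, 57.3, 54.0 and 37.8 CPM in CD45+ libraries. Brush and EpCAM+ ranges overlapped over most of their length, and the lowest value of each group came from the library that stood apart. The log2 fold change against EpCAM+ was -0.05 ± 0.36 (edgeR adjusted p = 0.929), and against CD45+ it was -1.36 ± 0.41 (adjusted p = 0.00921). Mcm6 was at 7.54, 28.2 and 39.9 CPM in Brush, at 7.10, 44.5 and 63.1 CPM in EpCAM+ libraries, and at 11.5, 171, 85.0 and 132 CPM in CD45+ libraries, so that the groups overlapped. The lowest EpCAM+ value was that of replicate 5, and the other EpCAM+ libraries were at 35.6 CPM or more, above 5 of the 7 Brush libraries. Its log2 fold change was -0.63 ± 0.43 (edgeR adjusted p = 0.258) against EpCAM+ and -1.89 ± 0.49 (adjusted p = 0.00275) against CD45+ libraries. Mcm4 and Mcm7 had log2 fold changes of -0.82 ± 0.49 (edgeR adjusted p = 0.195) and -0.81 ± 0.34 (adjusted p = 0.0592) against EpCAM+ libraries and were not called there. Without the 3 libraries that stood apart, Mcm6 (-0.67, edgeR adjusted p = 0.0200) and Mcm7 (-0.83, edgeR adjusted p = 0.00214) were called lower. Mcm6 was called in that 1 of 29 alternative fits and Mcm7 in 7 of 29, among them the DESeq2 Wald test and upper-quartile factors. The 6 Mcm genes thus spanned log2 fold changes from -3.31 for Mcm5 to -0.05 for Mcm2 in 1 comparison. Whether these differ from each other was not tested. Mcm7 exons overlap those of Ap4m1 and Cops6 on the other strand, by 321 and 64 bases in GENCODE vM21, and the strand setting of the counts is not given.

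In TPM the Brush levels of the helicase genes were 12.8 ± 6.96 for Mcm6, 13.1 ± 7.29 for Mcm7 and 9.45 ± 6.24 for Mcm2, against 3.87 ± 3.74 for Mcm4, 1.90 ± 2.11 for Mcm3 and 0.904 ± 0.692 for Mcm5 (SD, n = 7). In EpCAM+ libraries the same genes lay between 5.17 ± 3.85 TPM for Mcm4 and 16.8 ± 7.42 TPM for Mcm7, with Mcm5 at 7.08 ± 3.79 and Mcm3 at 5.67 ± 2.73 TPM. The subunits were thus more unequal per length in Brush than in EpCAM+ libraries, as a description.

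Cdt1, which loads the helicase with Cdc6, averaged 4.35 ± 3.10 CPM in Brush, 12.9 ± 9.19 CPM in EpCAM+ and 43.1 ± 32.4 CPM in CD45+ libraries. It was lower in Brush against EpCAM+ (log2 fold change -1.48 ± 0.52, edgeR adjusted p = 0.0263), a call that was lost without Brush replicate 2 or EpCAM+ replicate 4 and with a replicate block (adjusted p from 0.0504 to 0.106), and against CD45+ libraries (-3.25 ± 0.58, adjusted p = 6.32e-05, and -2.55 without CD45+ replicate 3). Cdc45, part of the active helicase, had a log2 fold change of -1.34 ± 0.66 against EpCAM+ (edgeR adjusted p = 0.113) and of -2.36 ± 0.75 against CD45+ libraries (adjusted p = 0.0125). Against CD45+ the edgeR adjusted p was 0.0636 without CD45+ replicate 2.

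Gins2, a subunit of the GINS complex that joins the helicase, depended on the input table. Brush libraries held 45 Gins2 reads in the count table and 882 in the RSEM expected counts, EpCAM+ libraries 373 and 806, and CD45+ libraries 143 and 396. In the counts Gins2 was lower in Brush, with log2 fold changes of -2.65 ± 0.65 against EpCAM+ (edgeR adjusted p = 0.00202) and -2.22 ± 0.73 against CD45+ (adjusted p = 0.0149), and in the RSEM values the signs turned to 0.42 (adjusted p = 0.390) and 0.72 (adjusted p = 0.215). Without Brush replicate 5 the count values were -3.27 and -2.83. Gins2 exons (chr8:120578633-120589304, minus strand, GRCm38) overlap those of Gse1 on the other strand by 2758 bases in GENCODE vM21. The strand setting of the counts is not given, and the cause of the difference between the 2 inputs was not tested.

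Of the 4 synthesis and nucleotide genes, Pcna, Rrm2 and Tyms were lower in Brush against EpCAM+ libraries and Rrm1 was not called, and against CD45+ libraries all 4 were lower. Pcna, the sliding clamp of the replication fork, was at 19.6, 22.6 and 30.6 CPM in Brush (lowest, median, highest), at 34.0, 52.5 and 75.3 CPM in EpCAM+ libraries, and at 69.0, 74.0, 52.0 and 80.3 CPM in CD45+ libraries. Its values were tight within Brush and did not overlap with either group, with edgeR log2 fold changes of -1.17 ± 0.23 (adjusted p = 0.000269) against EpCAM+ and -1.54 ± 0.26 (adjusted p = 3.96e-05) against CD45+. Ribonucleotide reductase, which makes deoxynucleotides, is built from the large subunit Rrm1 and the small subunit Rrm2. Rrm1 was at 7.54, 28.0 and 45.2 CPM in Brush, at 17.3, 39.8 and 77.3 CPM in EpCAM+ libraries, and at 25.9, 108, 59.6 and 82.8 CPM in CD45+ libraries. Rrm2 was at 0, 0 and 7.04 CPM in Brush, at 6.17, 18.2 and 37.5 CPM in EpCAM+ libraries, and at 5.75, 84.7, 41.0 and 42.4 CPM in CD45+ libraries. For Rrm1 the groups overlapped, while for Rrm2 only Brush replicate 3 reached the other groups. Against EpCAM+, Rrm1 had a log2 fold change of -0.52 ± 0.39 (edgeR adjusted p = 0.304) and Rrm2 of -3.76 ± 0.77 (adjusted p = 0.000374). Against CD45+ libraries the values were -1.34 ± 0.44 for Rrm1 (edgeR adjusted p = 0.0153, and 0.0845 without CD45+ replicate 2) and -5.05 ± 0.83 for Rrm2 (adjusted p = 2.38e-05). Without Brush replicate 3 the Rrm2 values were -5.49 and -6.77. Tyms, which makes thymidylate, averaged 6.15 ± 3.23 CPM in Brush, 18.9 ± 12.9 CPM in EpCAM+ and 23.6 ± 13.54 CPM in CD45+ libraries and was lower against both (edgeR adjusted p = 0.00273 and 0.00312).

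The S phase cyclins, which activate Cdk2 at the start of replication, were low in Brush. Ccne1 averaged 1.16 ± 1.70 CPM in Brush, 5.48 ± 3.96 CPM in EpCAM+ and 15.4 ± 7.20 CPM in CD45+ libraries. It was lower in Brush against both (edgeR log2 fold changes of -2.74 ± 0.77, adjusted p = 0.00629, and -4.11 ± 0.85, adjusted p = 0.000328), and without Brush replicate 3 the values were -4.07 and -5.45. Ccne2 averaged 0.688 ± 0.812 CPM in Brush, 3.53 ± 1.64 CPM in EpCAM+ and 1.78 ± 2.66 CPM in CD45+ libraries, and was called against EpCAM+ (-2.13 ± 0.68, edgeR adjusted p = 0.0150) but not against CD45+ (-1.39 ± 0.79, adjusted p = 0.162), where replicate 2 held 23 of the 33 reads.

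Most mitotic genes were almost without reads in Brush. Ube2c, the ubiquitin-conjugating enzyme of the anaphase-promoting complex, had 1 read in the 7 Brush libraries together, in replicate 6, against 1194 reads in the 7 EpCAM+ and 373 in the 4 CD45+ libraries. In CPM it was at 0, 0 and 0.213 in Brush (lowest, median, highest), at 11.6, 27.7 and 87.9 in EpCAM+ libraries and at 23.0, 31.9, 18.1 and 18.3 in CD45+ libraries. Relative to depth, EpCAM+ libraries held 1162 times the reads of Brush (95% exact interval 208 to 45922) and CD45+ libraries 634 times (113 to 25088), intervals that cover counting error only. Both differences passed the edgeR test (adjusted p = 8.72e-10 and 4.02e-09). Ube2c exons overlap those of Tnnc2 on the other strand by 592 bases.

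Ccnb2, a mitotic cyclin, was at 0, 0 and 0.544 CPM in Brush, at 10.4, 34.2 and 47.02 CPM in EpCAM+ libraries, and at 17.2, 54.8, 22.4 and 30.5 CPM in CD45+ libraries. The groups lay far apart, with edgeR log2 fold changes of -6.98 ± 0.60 (adjusted p = 3.34e-09) against EpCAM+ and -7.16 ± 0.63 (adjusted p = 2.77e-09) against CD45+. Without Brush replicate 7 the values were -7.81 and -7.93. Its kinase partner Cdk1 was at 0, 0.544 and 2.98 CPM in Brush, at 9.62, 27.4 and 51.2 CPM in EpCAM+ libraries, and at 2.87, 46.1, 15.7 and 27.9 CPM in CD45+ libraries. Cdk1 did not overlap between Brush and EpCAM+ libraries, and between Brush and CD45+ libraries only CD45+ replicate 1 fell within the Brush range. The Cdk1 log2 fold changes were -5.08 ± 0.59 (edgeR adjusted p = 2.51e-07) and -4.81 ± 0.62 (adjusted p = 8.08e-07), or -5.82 and -5.53 without Brush replicate 3. Cdc20, which activates the anaphase-promoting complex, averaged 0.515 ± 0.496 CPM in Brush, 41.8 ± 34.7 CPM in EpCAM+ and 13.3 ± 5.70 CPM in CD45+ libraries. Its fold differences were 69.9 against EpCAM+ and 23.9 against CD45+, both lower in Brush (edgeR adjusted p = 1.05e-07 and 8.87e-06).

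The proliferation marker Mki67 was at 0, 0.811 and 2.44 CPM in Brush, at 16.0, 32.1 and 59.2 CPM in EpCAM+ libraries, and at 51.7, 129, 32.4 and 77.2 CPM in CD45+ libraries, with no overlap and 35.8-fold (edgeR adjusted p = 8.32e-08) and 82.2-fold (adjusted p = 6.20e-09) lower levels in Brush. The same held for genes of other steps of mitosis. Against EpCAM+ libraries, Birc5 of the chromosomal passenger complex was 96.5-fold lower in Brush, its kinase Aurkb 39.5-fold, the kinetochore motor Cenpe 55.6-fold, the midzone kinesin Kif23 41.6-fold, the spindle protein Nusap1 39.7-fold and cyclin A2 (Ccna2) 32.4-fold. All 6 were called with edgeR, with adjusted p-values from 6.29e-08 to 8.23e-06. On the log2 scale 3 of them moved when Brush replicate 3 was left out, to -6.69 for Aurkb, -6.07 for Kif23 and -6.92 for Nusap1, and Birc5 moved to -5.96 without EpCAM+ replicate 5. Bub1, a spindle checkpoint kinase, had 3 reads in Brush against 126 in EpCAM+ and 133 in CD45+ libraries, and EpCAM+ libraries held 40.9 times the reads of Brush relative to depth (95% exact interval 13.7 to 201). Of the 3 reads 2 came from Brush replicate 2, without which the Bub1 log2 fold changes were -5.85 in place of -4.94 against EpCAM+ and -6.72 in place of -5.86 against CD45+, and the CD45+ value was -5.23 without CD45+ replicate 2. Of the 22 mitotic genes 14 did not overlap between Brush and EpCAM+ libraries, and of the 14 replication genes 3 did not (Cdc6, Mcm5 and Pcna), where 10.7% of all genes lay wholly lower in Brush. None of the 46 members lay wholly higher in Brush than in EpCAM+ libraries, where 9.54% of all genes did. Between Brush and CD45+ libraries the counts were 12 of 22 and 5 of 14, where 13.8% of all genes lay wholly lower.

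**Figure D3:**
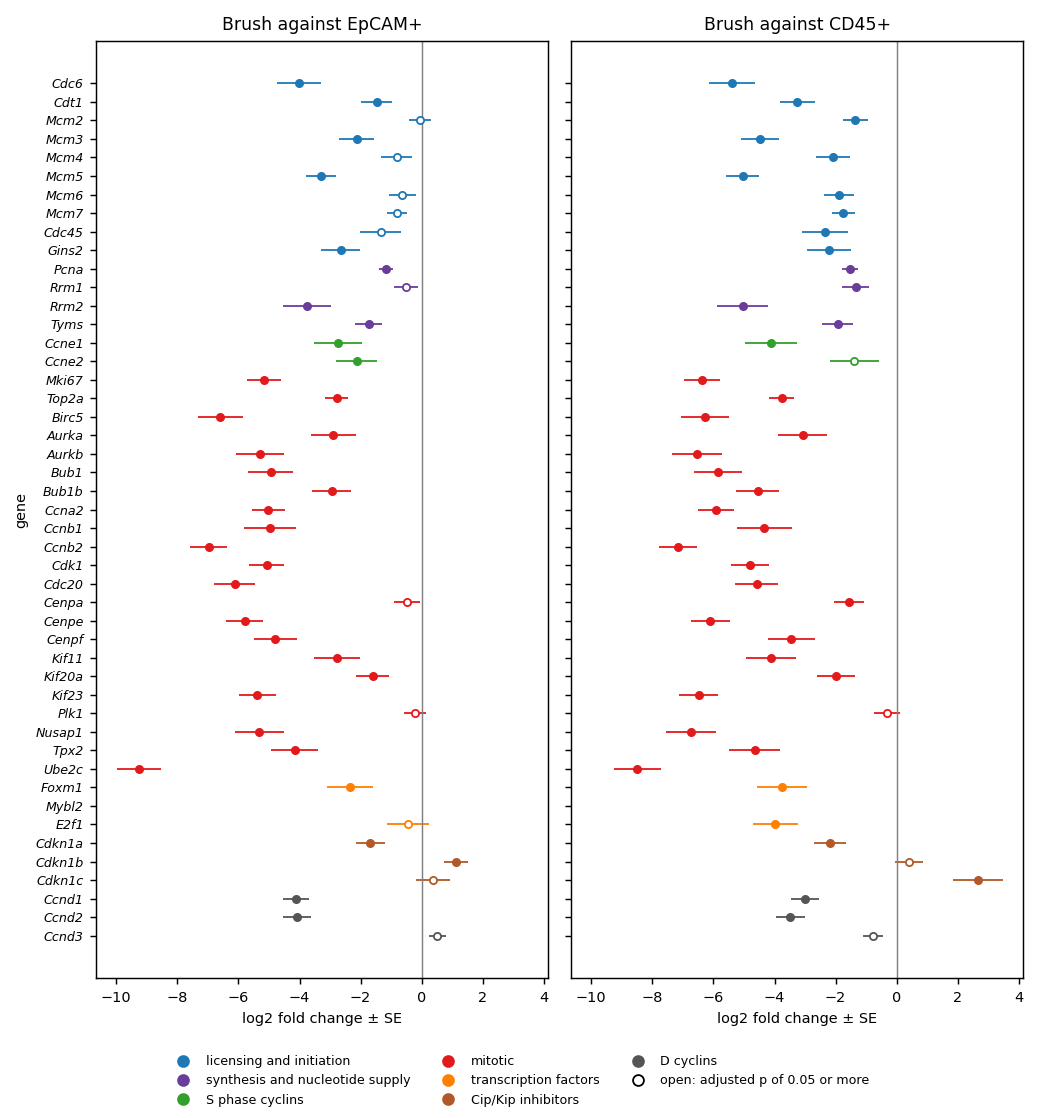
edgeR log2 fold changes (points) with standard errors (bars) of the members in Brush against EpCAM+ libraries (left) and against CD45+ libraries (right), coloured by role, with open points where the adjusted p was 0.05 or more. Most mitotic genes lie far to the left of 0 in both panels, Plk1 lies near 0, and Mybl2, which was not tested, has no point.

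Aurka, Bub1b, Kif11, Kif20a, Ccnb1, Cenpf and Tpx2 were also lower in Brush against both groups, by 3.05-fold for Kif20a to 31.5-fold for Ccnb1 against EpCAM+ libraries. Aurka and Kif11 act in building the spindle, Bub1b in its checkpoint and Kif20a in cytokinesis. The smallest of these, Kif20a, was called at an edgeR adjusted p of 0.0230 against EpCAM+ and 0.0108 against CD45+ libraries, and lost its call without EpCAM+ replicate 3 (adjusted p = 0.0643) or with limma voom (0.0504) in the first comparison and without CD45+ replicate 2 (0.183) in the second. Without Brush replicate 3 the log2 fold changes against EpCAM+ were -4.07 for Bub1b, -4.18 for Kif11 and -5.38 for Cenpf. They were -3.86 for Aurka without Brush replicate 6, -6.12 for Ccnb1 without Brush replicate 5 and -4.17 for Cenpf without EpCAM+ replicate 5. Kif20a exons overlap those of Cdc23 on the other strand by 1271 bases.

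Top2a, Cenpa and Plk1 were the mitotic genes with the highest mean CPM in Brush, and every Brush library held reads of them, as of Kif20a. This group of 3 was formed after the values were seen. Together they made up 72.8 ± 8.67% of the summed mitotic CPM in Brush, 17.9 ± 3.19% in EpCAM+ and 25.6 ± 3.03% in CD45+ libraries (SD). The other 19 mitotic genes summed to 7.54 to 29.8 CPM in Brush, 149 to 516 CPM in EpCAM+ and 155 to 781 CPM in CD45+ libraries. The highest of the Brush sums, 29.8 CPM, came from replicate 3, and the next was 11.9 CPM.

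Top2a, the topoisomerase that untangles sister chromatids, was at 4.27, 5.44 and 12.5 CPM in Brush, at 24.1, 43.9 and 78.1 CPM in EpCAM+ libraries, and at 43.1, 179, 52.1 and 72.6 CPM in CD45+ libraries. It was present in Brush but still lower without overlap, with edgeR log2 fold changes of -2.78 ± 0.37 (adjusted p = 1.86e-06) against EpCAM+ and -3.77 ± 0.41 (adjusted p = 6.31e-08) against CD45+, or -3.14 without CD45+ replicate 2. Cenpa, the histone H3 variant that marks centromeres, was at 7.31, 13.2 and 25.0 CPM in Brush, at 3.34, 16.7 and 36.6 CPM in EpCAM+ libraries, and at 8.62, 58.8, 50.5 and 36.3 CPM in CD45+ libraries. All Brush values lay within the EpCAM+ range, and the log2 fold change was -0.48 ± 0.43 (edgeR adjusted p = 0.402) against EpCAM+ and -1.57 ± 0.49 (adjusted p = 0.0108) against CD45+ libraries, the second reaching an adjusted p of 0.0506 without CD45+ replicate 2.

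Plk1, a kinase of mitotic entry and spindle assembly, was at 5.44, 7.47 and 21.1 CPM in Brush, at 6.01, 9.77 and 19.5 CPM in EpCAM+ libraries, and at 2.87, 17.7, 14.02 and 9.40 CPM in CD45+ libraries. The 3 groups overlapped, and neither Brush comparison was called in the counts (edgeR log2 fold changes of -0.22 ± 0.36, adjusted p = 0.667, and -0.30 ± 0.43, adjusted p = 0.593). In the RSEM expected counts Plk1 was lower in Brush against both, with log2 fold changes of -1.70 ± 0.52 (adjusted p = 0.0112) and -1.92 ± 0.58 (adjusted p = 0.00954). Brush libraries held 284 Plk1 reads in the count table and 98 in the RSEM table, while EpCAM+ libraries held 377 and 343 and CD45+ libraries 237 and 241, so the 2 tables differed mainly in Brush. In GENCODE vM21 Plk1 (chr7:122159439-122169873, plus strand, GRCm38) overlaps Gm44985, a transcript still to be tested experimentally, on the other strand by 156 exonic bases. Across the 46 members the absolute difference between the 2 log2 fold changes against EpCAM+ had a median of 0.11, and it was above 1 for 4 members, Gins2, Plk1, Kif23 and Tpx2.

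**Figure D4:**
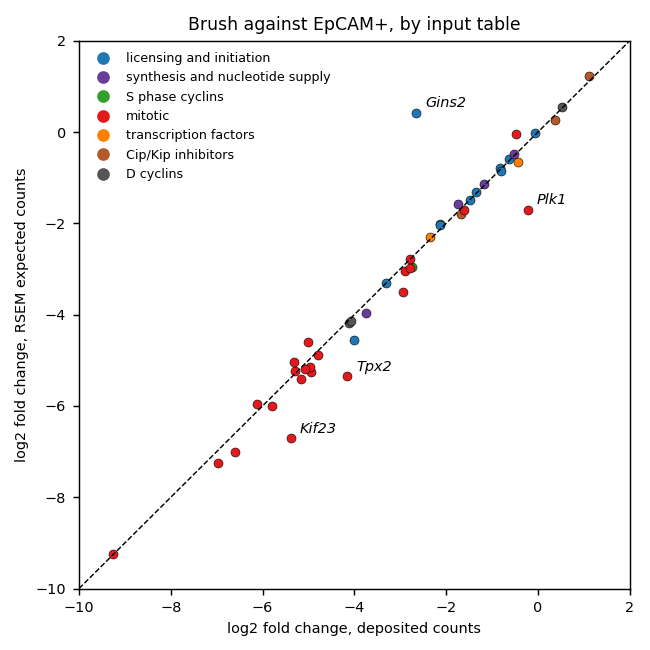
log2 fold change of Brush against EpCAM+ libraries for the 46 members tested, from the deposited counts (horizontal axis) and from the RSEM expected counts (vertical axis), with the dashed line at equality. Most members lie near the line, Gins2 lies above it at -2.65 and 0.42, and Plk1 lies below it at -0.22 and -1.70.

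The transcription factors of the cell cycle were low in Brush, with means of 0.446 CPM for Foxm1, 0.677 CPM for Mybl2 and 1.18 CPM for E2f1. Foxm1, which acts on mitotic genes, averaged 0.446 ± 0.704 CPM in Brush, 2.72 ± 1.81 CPM in EpCAM+ and 6.69 ± 5.86 CPM in CD45+ libraries, and was lower in Brush against both (edgeR log2 fold changes of -2.35 ± 0.75, adjusted p = 0.0154, and -3.77 ± 0.82, adjusted p = 0.000537), or -3.08 and -4.49 without Brush replicate 3. E2f1, which acts on S phase genes, was at 0, 0.427 and 3.27 CPM in Brush, at 0.539, 1.11 and 2.16 CPM in EpCAM+ libraries, and at 11.5, 11.96, 6.02 and 31.2 CPM in CD45+ libraries. Brush and EpCAM+ values were alike in range (edgeR log2 fold change -0.44 ± 0.69, adjusted p = 0.650), and all CD45+ libraries were above both, with Brush lower by -3.97 ± 0.74 on the log2 scale (edgeR adjusted p = 0.000101, and -3.25 without CD45+ replicate 4). Mybl2 averaged 0.677 ± 0.646 CPM in Brush, 2.15 ± 1.58 CPM in EpCAM+ and 0.801 ± 0.815 CPM in CD45+ libraries and was not tested.

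The Cip/Kip inhibitors did not move as 1 group. Cdkn1b, which holds cyclin E and Cdk2 in check, was at 50.9, 65.4 and 228 CPM in Brush (lowest, median, highest), at 21.7, 31.4 and 106 CPM in EpCAM+ libraries, and at 77.6, 60.6, 74.4 and 52.3 CPM in CD45+ libraries. Apart from EpCAM+ replicate 5, every EpCAM+ library lay below every Brush library, and the Brush and CD45+ ranges overlapped. It was higher in Brush than in EpCAM+ libraries by a log2 fold change of 1.12 ± 0.39 (edgeR adjusted p = 0.0243) and not called against CD45+ (0.41 ± 0.46, adjusted p = 0.491). The call was lost without Brush replicate 4 (0.69, edgeR adjusted p = 0.119) or without EpCAM+ replicate 4 (1.02, adjusted p = 0.0607), and without the 3 libraries that stood apart the value was 1.18 (adjusted p = 0.000167). In TPM, Cdkn1b was at 26.5 to 60.3 in Brush and 10.5 to 18.1 in EpCAM+ libraries, with no overlap. These RSEM values differ from CPM in how reads were assigned and scaled, not only in length. EpCAM+ replicate 5 was at 106 CPM and 18.1 TPM.

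Cdkn1a, an inhibitor that p53 is known to induce, was at 77.6, 92.1 and 232 CPM in Brush, at 114, 223 and 1317 CPM in EpCAM+ libraries, and at 738, 435, 284 and 589 CPM in CD45+ libraries. The highest EpCAM+ value was that of replicate 5, far above the next at 322 CPM, and Brush overlapped with EpCAM+ through Brush replicates 4 and 5. Cdkn1a was lower in Brush, with log2 fold changes of -1.68 ± 0.47 against EpCAM+ (edgeR adjusted p = 0.00610), which became -0.85 (adjusted p = 0.0313) without EpCAM+ replicate 5, and of -2.18 ± 0.53 against CD45+ libraries (adjusted p = 0.00148). It still had the highest mean TPM of the 47 members in Brush, at 163 ± 34.3, as it had in EpCAM+ (328 ± 201) and CD45+ libraries (482 ± 88.9).

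Cdkn1c, the third inhibitor, was at 2.99, 5.42 and 20.7 CPM in Brush, at 2.6005, 4.85 and 9.56 CPM in EpCAM+ libraries, and at 0, 1.99, 0 and 1.52 CPM in CD45+ libraries. All Brush libraries lay above all CD45+ libraries, with a log2 fold change of 2.65 ± 0.82 (edgeR adjusted p = 0.0102), where 16.8% of all genes lay wholly higher. The value was 3.399 without CD45+ replicate 2 and 2.04 without CD45+ replicate 3. Against EpCAM+ libraries the log2 fold change was 0.36 ± 0.56 (adjusted p = 0.650).

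The D cyclins differed by member. Ccnd1 was at 1.71, 10.3 and 22.9 CPM in Brush, at 141, 172 and 263 CPM in EpCAM+ libraries, and at 31.6, 119, 62.1 and 134 CPM in CD45+ libraries. Ccnd2 was at 6.28, 23.3 and 60.3 CPM in Brush, at 244, 312 and 907 CPM in EpCAM+ libraries, and at 342, 245, 270.3 and 249 CPM in CD45+ libraries. Neither gene overlapped between Brush and another group, and against EpCAM+ libraries they were 17.2-fold (edgeR adjusted p = 6.90e-08) and 16.9-fold (adjusted p = 1.31e-07) lower in Brush. Ccnd3 was at 62.6, 79.2 and 104 CPM in Brush, at 33.9, 51.2 and 108 CPM in EpCAM+ libraries, and at 54.6, 147, 199 and 136 CPM in CD45+ libraries. Its Brush values lay within the span of the other groups, with log2 fold changes of 0.51 ± 0.29 (edgeR adjusted p = 0.160) against EpCAM+ and -0.77 ± 0.33 (adjusted p = 0.0588) against CD45+. Against EpCAM+, Ccnd3 was called higher in Brush in 1 of 29 alternative fits, without EpCAM+ replicate 4 (0.74, edgeR adjusted p = 0.0316). Against CD45+ it was called lower in 7 of 29. Among these were the DESeq2 Wald test, RSEM expected counts and the fit without the 3 libraries that stood apart (-0.96, edgeR adjusted p = 0.00470).

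Per length, Ccnd3 made up most of the D cyclin transcripts in each Brush library. Its share of the summed TPM of the 3 D cyclins was 60.5, 83.4 and 92.3% in Brush (lowest, median, highest), 5.04, 19.6 and 24.6% in EpCAM+ libraries, and 40.4, 36.6, 52.1 and 40.0% in CD45+ libraries, with no overlap between Brush and another group. Its share of the summed CPM was 47.5% in Brush replicate 4, 50% in replicate 5 and 74.0 to 81.4% in the other Brush libraries, against 2.90 to 14.3% in EpCAM+ and 12.8 to 37.5% in CD45+ libraries. The summed D cyclin level was 117 ± 21.8 CPM in Brush, 661 ± 255 CPM in EpCAM+ and 497 ± 46.99 CPM in CD45+ libraries (SD). Ccnd1 exons overlap those of LTO1 on the other strand by 1100 bases, Ccnd3 exons those of Bysl by 361 bases, and Ccnd2 exons those of 2 antisense genes.

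**Figure D5:**
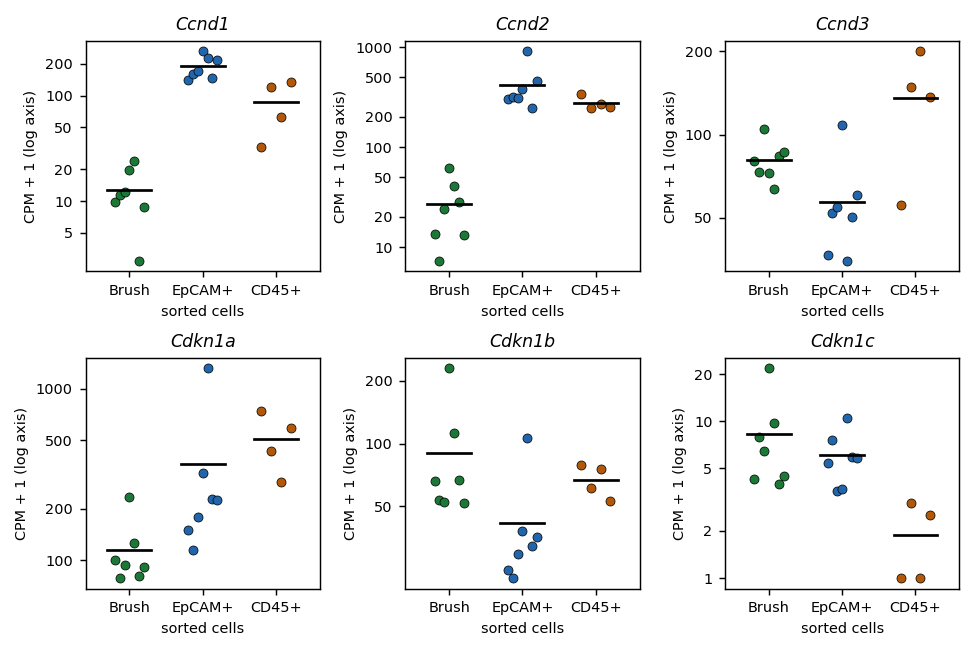
CPM + 1 on log axes of the D cyclins (top) and Cip/Kip inhibitors (bottom) in Brush, EpCAM+ and CD45+ libraries, with 1 point per library and a bar at the group mean. Ccnd1 and Ccnd2 lie far lower in Brush, Ccnd3 does not, Cdkn1b is highest in Brush replicate 4 at 228 CPM, and Cdkn1a has a single EpCAM+ point at 1317 CPM.

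Per length, the members ranked in Brush by mean TPM were led by Cdkn1a (163 ± 34.3), Ccnd3 (98.7 ± 22.3), Pcna (50.7 ± 12.1) and Cdkn1b (40.0 ± 10.5), followed by Cenpa (18.7 ± 7.49), Tyms (17.3 ± 9.58) and Ccnd2 (16.2 ± 10.1). The last 3 neighbours differed by less than their spread. Cdkn1a also held rank 1 in EpCAM+ and CD45+ libraries, and Pcna and Ccnd3 held ranks 3 and 4 there, in either order. Apart from Cenpa, no mitotic gene was above 1.98 TPM, the mean of Plk1, in Brush, whereas in EpCAM+ libraries Ube2c (43.3 ± 23.8), Cdk1 (33.7 ± 17.5) and Cdc20 (28.4 ± 23.3) led the mitotic genes.

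Between EpCAM+ and CD45+ libraries 12 of 46 members were called, where 40.5% of all genes were. Lower in EpCAM+ were 10 members, where 18.1% of all genes were lower, and 2 members, Cdc20 and Cdkn1c, were higher, where 22.5% were. Replication genes lower were 5 of 14, and mitotic genes lower were 3 of 22 with 1 higher. Mcm3 averaged 15.0 ± 6.43 CPM in EpCAM+ against 73.8 ± 50.3 CPM in CD45+ libraries (log2 fold change -2.34 ± 0.57, edgeR adjusted p = 0.00188), and E2f1 1.31 ± 0.680 against 15.2 ± 11.04 CPM (-3.53 ± 0.69, adjusted p = 0.000199). Of the 12 calls only 4 held in every alternative that tested the gene, and without the 3 libraries that stood apart 19 members were lower. Cdc20, higher in EpCAM+ by 1.55 ± 0.60 on the log2 scale (edgeR adjusted p = 0.0437), lost its call in 12 alternatives.

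Genes of the same processes that are not members were counted from 3 further lists. Of 42 tested genes of origins and forks, 17 were lower and 1 higher in Brush against EpCAM+ libraries, with a median log2 fold change of -0.79, and of 43 tested genes of mitosis 39 were lower and 2 higher, with a median of -3.34. Of all genes tested 22% were lower and 18.3% higher. A fit of only the 2 groups gave 24 mitosis genes lower in place of 39. That fit filtered low counts anew on those libraries, and how many of the 43 it tested is not given here. The difference between the 2 lists was not tested, and genes of either list may have passed the filter through the other groups, as the mitotic members did. Lower in Brush were thymidine kinase Tk1 (log2 fold change -2.33 ± 0.43, edgeR adjusted p = 0.000127), the origin subunit Orc6 (-1.83 ± 0.32, adjusted p = 7.58e-05), the cytokinesis genes Anln (-4.34 ± 0.67, adjusted p = 1.40e-05, and -5.03 without Brush replicate 3) and Racgap1 (-4.28 ± 0.61, adjusted p = 4.89e-06). The polymerase delta subunit Pold3 was higher in Brush, at 69.3 ± 12.8 CPM against 34.5 ± 18.2 CPM in EpCAM+ libraries (1.01 ± 0.27, edgeR adjusted p = 0.00444). Of the mitosis genes, the phosphatase Cdc25b was at 91.6 ± 34.4 CPM in Brush and 17.8 ± 7.31 CPM in EpCAM+ libraries (2.36 ± 0.35, edgeR adjusted p = 7.45e-06), and the checkpoint protein Bub3 at 311 ± 17.6 and 114 ± 31.3 CPM (1.45 ± 0.23, adjusted p = 1.92e-05). Against CD45+ libraries 24 origin and fork genes were lower and 1 was higher, and 39 mitosis genes were lower and 2 higher, where 22.4% of all genes were lower and 23.4% higher.

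Of 35 tested genes of RB, E2F and G1 control, 10 were lower and 4 higher in Brush against EpCAM+ libraries, shares of 28.6% lower, where 22% of all genes were, and 11.4% higher, where 18.3% of all genes were. The 4 genes higher were Cdkn2c, Rb1, Fbxw7 and Cdc25a. The Cdk4 and Cdk6 inhibitor Cdkn2c was at 22.6 ± 8.30 CPM in Brush against 6.21 ± 3.36 CPM in EpCAM+ libraries (log2 fold change 1.83 ± 0.37, edgeR adjusted p = 0.000342), and the retinoblastoma gene Rb1 at 13.1 ± 6.49 against 4.79 ± 2.36 CPM (1.42 ± 0.38, adjusted p = 0.00451). Fbxw7, which marks cyclin E and Myc for degradation, had a log2 fold change of 1.36 ± 0.34 (edgeR adjusted p = 0.00240), and the phosphatase Cdc25a, which promotes S phase entry, of 0.85 ± 0.31 (adjusted p = 0.0342). Lower were the D cyclin partner Cdk6, at 0.523 ± 0.265 CPM in Brush against 14.2 ± 2.56 CPM in EpCAM+ libraries (-4.50 ± 0.46, edgeR adjusted p = 4.38e-08), the Cdk1 inhibitory kinase Wee1 (-3.01 ± 0.56, adjusted p = 0.000135), Myc (-2.61 ± 0.47, adjusted p = 8.12e-05) and Trp53 (-1.57 ± 0.22, adjusted p = 3.08e-06). Against CD45+ libraries 11 genes of this list were lower and 3 higher in Brush. The shares were 31.4% and 8.57%, against 22.4% and 23.4% of all genes. Those higher were Cdkn2c (2.52 ± 0.50, edgeR adjusted p = 0.000188), Cdc25a (1.61 ± 0.41, adjusted p = 0.00249) and E2f5 (1.87 ± 0.52, adjusted p = 0.00477). Rb1 (-0.33 ± 0.44, edgeR adjusted p = 0.563) and Fbxw7 (0.35 ± 0.42, adjusted p = 0.521) were not called against CD45+ libraries.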

How the data were processed

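The authors deposited a table of raw whole-number counts per gene symbol, used for all tests. They also deposited, per the file headers, RSEM tables with expected counts (rounded to whole numbers here as an alternative) and TPM (used for levels between genes); 47224 of 47729 gene identifiers were matched to a symbol. The tools, per the submitters' processing notes, include featureCounts, RSEM 1.2.21, STAR 2.4.2a, Picard and DESeq2, with build mm10. The annotation and strand setting were not given in the sources used here.

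The members and gene lists were chosen with earlier results of these data known, among them that proliferation genes were lower in Brush, so that direction is not independent support. The text names all 47 members. Other lists were ranked for up to 4 genes per direction with the largest called change and at least 10 CPM in 1 group. Only some of those genes are named, and not always the largest. Groups came from the sample titles. Counts of all 18 samples entered 1 edgeR 4.0.16 quasi-likelihood fit (R 4.3.3, TMM, filterByExpr, group only), checked on simulated data, with Benjamini-Hochberg adjustment over 13418 genes and calls below 0.05. The SE was the absolute log2 fold change over the square root of F. CPM used TMM library sizes. Intervals at 95% are exact and cover counting error only. No 2 libraries of a group agreed within sampling noise (lowest chi-square per degree of freedom 6.11). Alternatives were DESeq2 1.42.0, limma voom 3.58.1, other scalings and filters, the RSEM input, a replicate block and leaving libraries out. Exon overlaps came from GENCODE vM21. Promoter windows came from RefSeq. A normalized table was not used.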

Additional observations from a re-analysis of the deposited data

Results flagged for a closer look

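In 16 of 150 sets of values the highest or lowest library was beyond Dixon's 95% value on the log2(CPM + 1) scale. A set was 1 member, 1 of the 2 sums or the mitotic share in 1 group, and all 16 were members. Chance gives about 5% of sets for normally spread values, which sets of mostly zeros, as for Cdc6 and Ube2c in Brush, are not. In Brush libraries, replicate 3 was highest for Top2a (12.5 CPM), Aurkb (1.35 CPM), Bub1b (3.25 CPM) and Nusap1 (1.08 CPM). Replicate 5 was highest for Cdc6 (1.09 CPM) and Ccnb1 (2.18 CPM), and replicate 6 for Aurka (4.27 CPM) and Ube2c (0.213 CPM). Replicate 4, the shallowest Brush library, was lowest for Mcm2 (1.89 CPM) and Mcm7 (5.66 CPM). In EpCAM+ libraries all 5 such values came from replicate 5, which was lowest for Mcm2 (4.63 CPM), Mcm6 (7.10 CPM) and Mcm7 (10.5 CPM) and highest for Cdkn1a (1317 CPM) and Cdkn1b (106 CPM). In CD45+ libraries replicate 1 was lowest for Mcm7 (11.5 CPM).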

How the results depend on the processing

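Every Brush comparison kept its main split of members: leaving out 1 library gave 33 to 35 members lower against EpCAM+ and 36 to 42 against CD45+, 19 to 20 and 19 to 21 mitotic genes lower, and 7 to 9 and 11 to 14 replication genes lower. Of the 35 members called against EpCAM+, 31 kept the call in every alternative that tested them, and of the 42 called against CD45+, 37 did. Members that an alternative filtered out, such as Cdkn1c at a minimum of 10 CPM, did not count as lost there. With RSEM expected counts, Gins2 reversed to 0.42 against EpCAM+ and 0.72 against CD45+, the cause of which was not tested. The 1 member higher in Brush against EpCAM+ ranged from 0 to 1 on leaving out 1 library, and the 1 member higher against CD45+ fell to 0 at a minimum of 10 CPM. Origin and fork genes higher in Brush against EpCAM+ numbered 3 without the 3 libraries that stood apart and 1 to 2 on leaving out 1 library. Against CD45+ they numbered 0 with no filter, with RSEM input and with the replicate block, and 0 to 1 on leaving out 1 library. Fitting only the 2 groups, with the filter on low counts applied anew, gave 24 mitosis genes lower against EpCAM+ in place of 39. The number tested in that fit is not given here.

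EpCAM+ against CD45+ depended most on the settings, with 4 of 12 calls kept in all alternatives that tested the gene. Members lower in EpCAM+ (10) numbered 6 with upper-quartile factors or DESeq2, 19 without the 3 libraries, and 5 to 17 on leaving out 1 library. Members higher (2) numbered 1 at a minimum of 10 CPM or with RSEM, and 0 to 3 on leaving out 1. Mitotic genes lower (3) numbered 1 with DESeq2 size factors, no filter or ribosomal genes left out, 0 with upper-quartile factors or the DESeq2 Wald test, 5 with limma voom, 8 without the 3 libraries, and 0 to 8 on leaving out 1. Mitotic genes higher (1) numbered 0 with voom, only 2 groups, RSEM or the block, and 0 to 1 on leaving out 1. Replication genes lower (5) numbered 3 with the block and 2 to 7 on leaving out 1. Origin and fork genes higher (1) numbered 0 with upper-quartile factors, only 2 groups or the block, and 0 to 2 on leaving out 1. Those lower (9) numbered 4 with DESeq2, 5 with the block, 14 without the 3 libraries, and 3 to 12 on leaving out 1. Mitosis genes higher (0) numbered 1 with voom, and those lower (6) 2 to 8 on leaving out 1. Upper-quartile factors moved the median of all genes to 0.15 in Brush against CD45+, in place of 0.05, and to 0.20 in EpCAM+ against CD45+, in place of 0.08.

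Whether same-numbered samples came from the same mouse or sort is not labelled. Correlations of their deviations ran from -0.18 to 0.23, over 15 same-numbered pairs in 3 comparisons that reuse samples. Of the 7 Brush and EpCAM+ pairs 4 were over 0.1, and in 3 of the 15 pairs the own number was the best partner. With the replicate block, members lower and higher in Brush were 33 and 1 against EpCAM+ and 41 and 1 against CD45+, and in EpCAM+ against CD45+ 8 and 2. Depth limits the Brush values: replicate 4 held 21 mitotic and 31 replication reads, and genes of few reads in Brush have fold changes set by those reads.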
